A study of Mus musculus with 2 samples.

Results

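Immediate early genes are the first genes that a cell transcribes after a stimulus, and 10 of them were followed here: Fos, Fosb, Jun, Junb, Jund, Egr1, Nr4a1, Nr4a3, Atf3 and Ier2. They were chosen by name from 55536 annotated genes, but with earlier results of these data known. All 10 were found in both libraries. The libraries hold total RNA from the hearts of 2 male B6CASTF1/J mice aged 10 days, an F1 hybrid of the C57BL/6J and CAST/EiJ strains, sequenced from 300 ng of RNA each. The labels number them biological replicates 1 and 2 and number the males separately, but give both a shared donor record, and the spread between them may be technical in part. The design holds 1 group with no treatment, so the comparison it allows is between the 2 hearts, and no test across samples can be made. The genes of the CAST/EiJ parent were quantified against the C57BL/6J reference, and what that does to each level was not tested.

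Most immediate early genes need no new protein to be switched on, because kinases act on transcription factors that already sit on or near their promoters. SRF with its ternary complex partners of the ELK family answers growth factor signals through serum response elements, whereas CREB and its relatives answer cyclic AMP and calcium through the cyclic AMP response element. The products are mostly transcription factors themselves. FOS proteins pair with JUN proteins to form AP-1, ATF3 is a related leucine zipper protein of the stress response, EGR1 is a zinc finger factor, NR4A1 and NR4A3 are orphan nuclear receptors, and IER2 is a small nuclear protein. In heart muscle, genes of this class are known to be induced by stretch, by adrenergic drive and by ischaemia.

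The libraries held a total expected count of 38851514 in replicate 1 and 37907585 in replicate 2. Markers fixed for ventricular cardiomyocytes were present in both, with 8 of 8 at 1 TPM or more and a summed level of 35903 TPM in replicate 1 and 33558 TPM in replicate 2. TPM is the read count of a transcript divided by transcript length and scaled to the same total in each library. The libraries differed in markers of other tissue. Summed atrial markers stood at 1557 TPM in replicate 1 and 295 TPM in replicate 2, with 7 of 8 genes over 2-fold lower in replicate 2. The remaining atrial marker, Kcna5, was higher there, at 8.97 TPM in replicate 1 and 12.28 TPM in replicate 2. Summed adipocyte markers stood at 425 and 31.4 TPM, with 6 of the 6 genes tested over 2-fold lower. By the same rule, given below, 0.984% of the 13211 genes tested were over 2-fold lower. A gene was tested where its mean count was at least 50. Summed Schwann cell and neuronal markers stood at 18.7 and 3.22 TPM. Fibroblast markers summed to 1771 and 1116 TPM, and smooth muscle markers to 398 and 268 TPM. Endothelial markers summed to 1185 and 854 TPM, macrophage and neutrophil markers to 59.8 and 40.1 TPM, and red blood cell markers to 12071 and 12950 TPM. Fabp4 alone gave 665.56 and 432.62 TPM of the endothelial sum. On scaled counts, described below, the median log2 ratio of the endothelial markers, replicate 2 over replicate 1, was only -0.07. On TPM the median log2 ratio of all genes tested was itself -0.21. No marker on these lists was at 0 in both libraries. In bulk tissue, fewer cells of a type and less RNA per cell cannot be told apart. The part that these differences in markers have in the ratios of the immediate early genes was not tested.

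The promoters are shown first, because several of these genes share a short sequence that CREB and ATF proteins are known to recognise. The set of RefSeq promoters at hand held a usable window for 8 of the 10 genes, Egr1 and Ier2 not among them. It is on build GRCm38.p6, the assembly of the mm10 build of the deposited data. Each window is the 250 bases upstream of the RefSeq start site, read 5′ to 3′ on the strand of the gene. The 3 genes with the largest ratio between the hearts are printed with Fos and Nr4a3, the other genes that hold at least 2 copies of the sequence. Capitals mark TGACG, the core of the cyclic AMP response element, on either strand (CGTCA where it lies on the opposite strand). The windows are Nr4a1 at chr15:101266596-101266845 on the plus strand, Nr4a3 at chr4:48045055-48045304 on the plus strand, Fos at chr12:85473640-85473889 on the plus strand, Fosb at chr7:19310046-19310295 on the minus strand and Atf3 at chr1:191183334-191183583 on the minus strand.
Nr4a1: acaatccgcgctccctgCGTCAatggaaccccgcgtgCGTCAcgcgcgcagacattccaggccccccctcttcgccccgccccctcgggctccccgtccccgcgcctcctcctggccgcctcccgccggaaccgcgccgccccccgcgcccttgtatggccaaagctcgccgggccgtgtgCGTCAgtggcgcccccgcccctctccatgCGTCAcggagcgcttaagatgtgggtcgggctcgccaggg
Nr4a3: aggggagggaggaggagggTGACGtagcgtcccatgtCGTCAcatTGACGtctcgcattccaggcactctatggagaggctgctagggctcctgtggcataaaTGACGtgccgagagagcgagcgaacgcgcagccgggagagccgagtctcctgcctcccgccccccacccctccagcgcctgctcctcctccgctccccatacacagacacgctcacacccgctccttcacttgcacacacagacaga
Fos: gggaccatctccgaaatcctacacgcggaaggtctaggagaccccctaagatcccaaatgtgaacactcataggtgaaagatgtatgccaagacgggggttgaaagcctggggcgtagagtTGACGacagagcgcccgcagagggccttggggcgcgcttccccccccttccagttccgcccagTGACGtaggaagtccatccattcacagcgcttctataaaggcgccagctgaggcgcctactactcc
Fosb: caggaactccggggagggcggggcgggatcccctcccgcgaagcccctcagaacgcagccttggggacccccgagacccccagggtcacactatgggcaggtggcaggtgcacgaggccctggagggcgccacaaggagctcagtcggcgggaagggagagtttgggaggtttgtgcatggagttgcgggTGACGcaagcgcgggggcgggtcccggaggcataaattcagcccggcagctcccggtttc
Atf3: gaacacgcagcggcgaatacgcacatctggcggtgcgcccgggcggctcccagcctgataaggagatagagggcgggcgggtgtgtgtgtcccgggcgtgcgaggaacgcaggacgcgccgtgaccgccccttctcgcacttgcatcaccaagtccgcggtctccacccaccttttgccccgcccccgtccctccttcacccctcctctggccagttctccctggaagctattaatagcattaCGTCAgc

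TGACG on either strand was found in 6 of the 8 windows, against 17.8% of the 32851 RefSeq windows of the same length. Nr4a1 and Nr4a3 held 4 copies each, a number reached by 0.137% of all windows. Fos held 2 copies, at 129 to 125 and at 66 to 62 bases before the start. Fosb, Atf3 and Junb held 1 copy each, and Jun and Jund held none. All 4 copies in Nr4a1 lie inside the longer word TGCGTCA, which holds TGACG on its other strand. That word was found in Nr4a1 and Fosb, 2 of 8 windows, against 1.75% of all windows, and 0.00304% of all windows held 4 or more copies. GCGGGGGCG, a binding word of EGR1, was also found in Nr4a1 and Fosb, against 2.57% of all windows. The TATA word TATAAA was found in Fos alone among the 8, at 33 to 28 bases before the start, against 12.4% of all windows. The full palindrome TGACGTCA (1.55% of all windows), the AP-1 word TGACTCA (4.46%), the CArG box of SRF (1.47%) and the NR4A word AAAGGTCA (1.34%) were found in none of the 8. That absence holds for the 250 bases of each window only. Bases further upstream, and the promoters of Egr1 and Ier2, were not searched, so these genes may hold such words elsewhere. The windows of Nr4a1 and Atf3 lie within the annotated genes. Their upstream starts, at 101254269 for the transcript Nr4a1-202 and 191218039 for Atf3-203, were not searched either. Both strands were searched for every word, and TGACG overlaps TGACGTCA and TGCGTCA by construction. The windows of the genes had a median GC content of 64.4%, against 52.4% for all windows, and the part of base composition in these shares was not tested. The Jund window starts from a RefSeq site 1210 bases upstream of the first base of the annotated gene, so it does not lie next to the transcript that was measured. Other windows reach into a measured transcript. The only copy of TGACG in Atf3 lies in the first bases of Atf3-201, which starts at 191183340. The Nr4a3 window runs past the first base of the gene, at 48045153. Its copy nearest the RefSeq start lies within the span of Nr4a3-201. Both copies are included in the numbers above. The Fosb window also reaches into its gene, but its copy lies upstream. A match to such a word is a description of the sequence and not of a bound protein. Any link between these words and the ratios between the hearts was not tested.

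The 10 genes spanned a wide range of levels in the heart, with Jund at the top and Fosb at the bottom. Jund, a JUN family member that many tissues express without a stimulus, stood at 89.37 TPM in replicate 1 and 81.81 TPM in replicate 2 (mean 85.6 ± 5.35, SD, n = 2), above 96.7% of protein-coding genes. Jun, the classic AP-1 partner of FOS, stood at 24.62 and 40.00 TPM (32.3 ± 10.9). Nr4a1 stood at 7.0 and 36.72 TPM (21.9 ± 21). Ier2 stood at 12.88 and 12.20 TPM (12.5 ± 0.481). Both values of Jund lay above both of Jun, and both of Ier2 above both of Atf3, the next gene down. Both values of Jun also lay above both of Ier2. The values of Nr4a1 overlapped those of Jun and lay on either side of Ier2, so the place of Nr4a1 in the order does not hold beyond its spread.

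Atf3, Junb, Nr4a3 and Egr1 formed a middle group at a few TPM. Atf3 stood at 2.32 and 8.52 TPM (5.42 ± 4.38), and Junb, an AP-1 subunit, at 5.30 and 4.60 TPM (4.95 ± 0.495). Nr4a3 stood at 5.18 and 3.50 TPM (4.34 ± 1.19), and Egr1 at 3.94 and 3.81 TPM (3.88 ± 0.0919). The values of each of these 4 overlapped those of its neighbours within the group, and all lay above both values of Fos. Fos, the namesake of its family, stood at only 1.37 and 1.45 TPM (1.41 ± 0.0566), below the middle of the protein-coding genes, of which 48.6% were lower. Fosb, its close relative, stood at 0.20 and 0.95 TPM (0.575 ± 0.530). The 10 genes together summed to 152.2 TPM in replicate 1 and 193.6 TPM in replicate 2. Jund made up 58.7% of that sum in replicate 1 and 42.3% in replicate 2, and Nr4a1 4.60% and 19.0%.

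**Figure D1:**
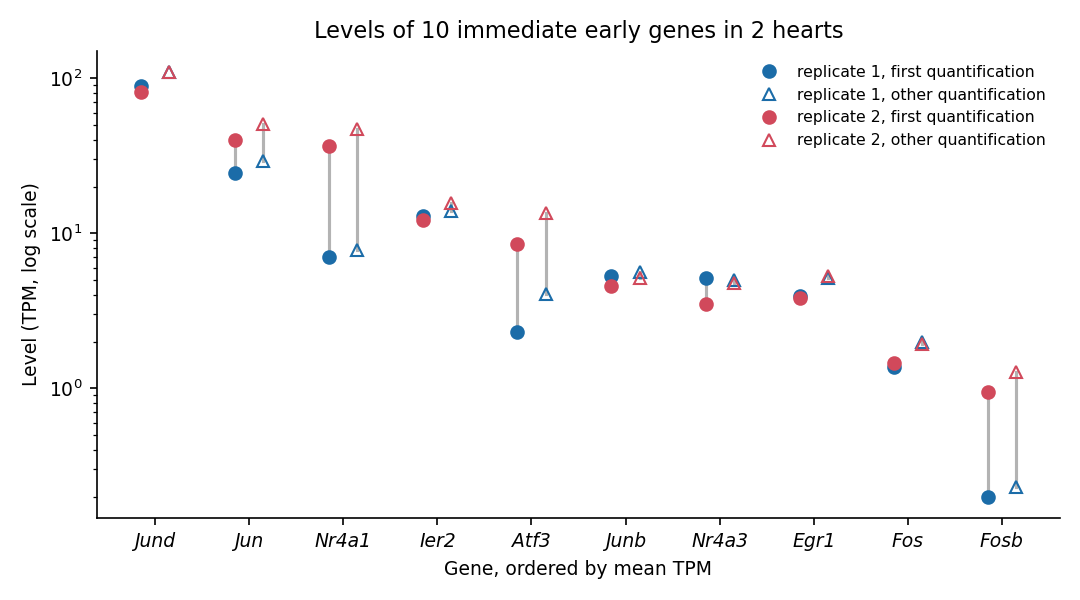
Level of each gene in TPM on a log axis, ordered by mean TPM, with filled circles for the gene tables, open triangles for the other deposited quantification, blue for replicate 1, red for replicate 2 and a grey line joining the 2 libraries. The points of Jund, Ier2, Junb, Egr1 and Fos lie close together, whereas those of Nr4a1 (7.0 and 36.72 TPM), Atf3 (2.32 and 8.52 TPM) and Fosb (0.20 and 0.95 TPM) lie far apart.

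The hearts were then compared gene by gene on counts. Expected counts were rounded, scaled with edgeR's TMM factors and written as a log2 ratio of replicate 2 over replicate 1, with an exact Clopper-Pearson 95% interval that covers counting error only. A gene was tested where its mean count was at least 50, which held for 13211 genes and for 9 of the 10, all but Fosb. It was called where the ratio passed 2-fold and its interval left out 1. Nr4a1 and Atf3 were called higher in replicate 2, 2 of the 9 tested, against 0.802% of all genes tested. None was called lower, against 0.984% of all genes tested. With no fold threshold, the interval lay above 1 for 5 of the 9 tested (Fos, Jun, Jund, Nr4a1 and Atf3), against 22.3% of all genes tested, and below 1 for none, against 20.6%. The calls of Jund and Fos by that looser rule were lost when libraries were scaled to the total count, to the spike-ins or to protein-coding counts. With the total count, 3 of the 9 tested (Jun, Nr4a1 and Atf3) had an interval above 1, where 11.7% of all genes tested lay above and 38.5% below. The ratio lay above 1 for all 10 genes on TMM-scaled counts, but for only 5 on the deposited TPM, where the median of all genes was itself shifted by -0.22. Across all genes tested, 51.3% of ratios lay above 1.

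Among the AP-1 genes, the FOS and JUN subunits did not move as a block. Fos had a count of 69 in replicate 1 and 89 in replicate 2, a log2 ratio of 0.51 (interval 0.04 to 0.98). Fosb had 19 and 71 counts, a log2 ratio of 2.02 (1.30 to 2.86), or 4.04-fold. Its mean count of 45 fell short of the minimum, so it was not tested. With a minimum of 10 it was called higher, against 1.89% of the 16728 genes then tested. Fosb was thus far higher in replicate 2 with few reads, whereas the interval of Fos came close to no difference. Jun had 2300 and 3960 counts, a log2 ratio of 0.93 (0.85 to 1.00), or 1.90-fold, just under the 2-fold threshold. At a threshold of 1.5-fold Jun was called with Nr4a1 and Atf3, 3 of the 9 tested, against 3.13% of all genes tested. It ranked at 128 from the highest of 13211 genes. Junb had 274 and 252 counts and a log2 ratio of 0.02 (-0.23 to 0.27). Jund had 4239 and 4112 counts and a log2 ratio of 0.10 (0.04 to 0.16), which fell to -0.01 when libraries were scaled to the total count. Junb and Jund lay within the middle of all genes, whose 5th to 95th percentiles ran from -0.47 to 0.46, whereas Jun, Fos and Fosb lay above the 95th percentile.

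Atf3, a stress-induced factor of the ATF and CREB family that acts mostly as a repressor, had 126 counts in replicate 1 and 496 in replicate 2. Its log2 ratio was 2.11 (1.83 to 2.41), or 4.33-fold, the 17th highest of all genes tested. Egr1, a zinc finger factor of growth and hypertrophic signalling, had 374 and 378 counts and a log2 ratio of 0.16 (-0.05 to 0.37). Ier2 had 554 and 556 counts and a log2 ratio of 0.15 (-0.03 to 0.32). The counts of Egr1 and Ier2 were thus almost equal in the 2 hearts, and the counting error alone would allow a ratio of 1.

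The NR4A receptors, orphan receptors that act largely without a bound ligand, differed from each other. Nr4a1 had 460 counts in replicate 1 and 2716 in replicate 2. Its log2 ratio of 2.70 (2.56 to 2.85), or 6.51-fold, was the 6th highest of the 13211 genes tested. Nr4a3 had 608 and 616 counts and a log2 ratio of 0.16 (-0.00 to 0.32). Nr4a3 stood lower in replicate 2 on the TPM scale (5.18 and 3.50 TPM) although its counts were nearly equal. The other quantification gave 4.97 and 4.78 TPM. The third receptor, Nr4a2, had 88 and 100 counts and a log2 ratio of 0.32 (-0.10 to 0.76).

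**Figure D2:**
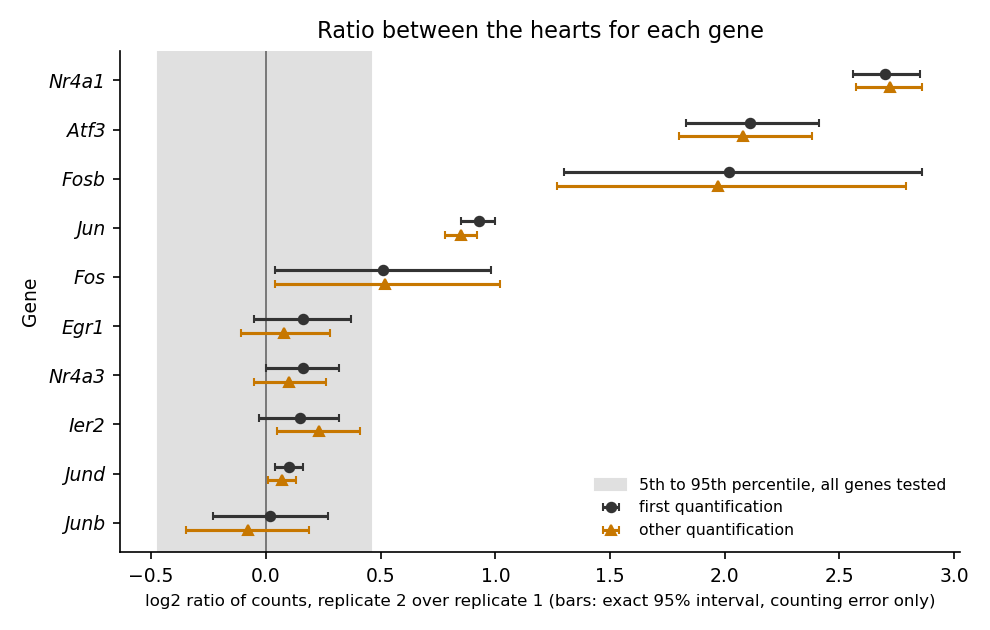
Log2 ratio of counts, replicate 2 over replicate 1, for each gene, with black circles for the gene tables, orange triangles for the other quantification, bars for the exact 95% interval of counting error and a grey band from the 5th to the 95th percentile of all genes tested. Nr4a1 (2.70), Atf3 (2.11), Fosb (2.02) and Jun (0.93) lie right of the band with their whole intervals.

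The other deposited quantification gave similar ratios. Nr4a1 had 444 and 2706 counts there, a log2 ratio of 2.72 (2.57 to 2.86). Atf3 had 129 and 508 counts, a ratio of 2.08 (1.80 to 2.38). Fosb had 20 and 74 counts, a ratio of 1.97 (1.27 to 2.79), and Jun 2429 and 4058 counts, a ratio of 0.85 (0.78 to 0.92). The 2 genes called were again Nr4a1 and Atf3, against 0.458% of all genes tested in that table. An interval above 1 was found for 6 of the 9 with a mean count of at least 50 there, against 19.9% of all genes tested. Ier2 was the gene that gained one, with 481 and 523 counts and a ratio of 0.23 (0.05 to 0.41), and Junb had a ratio of -0.08 (-0.35 to 0.19). Over all scalings and both quantifications of counts, the log2 ratio of Nr4a1 ran from 2.60 to 2.72, that of Atf3 from 2.01 to 2.11, that of Fosb from 1.80 to 2.02 and that of Jun from 0.82 to 0.93.

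**Figure D3:**
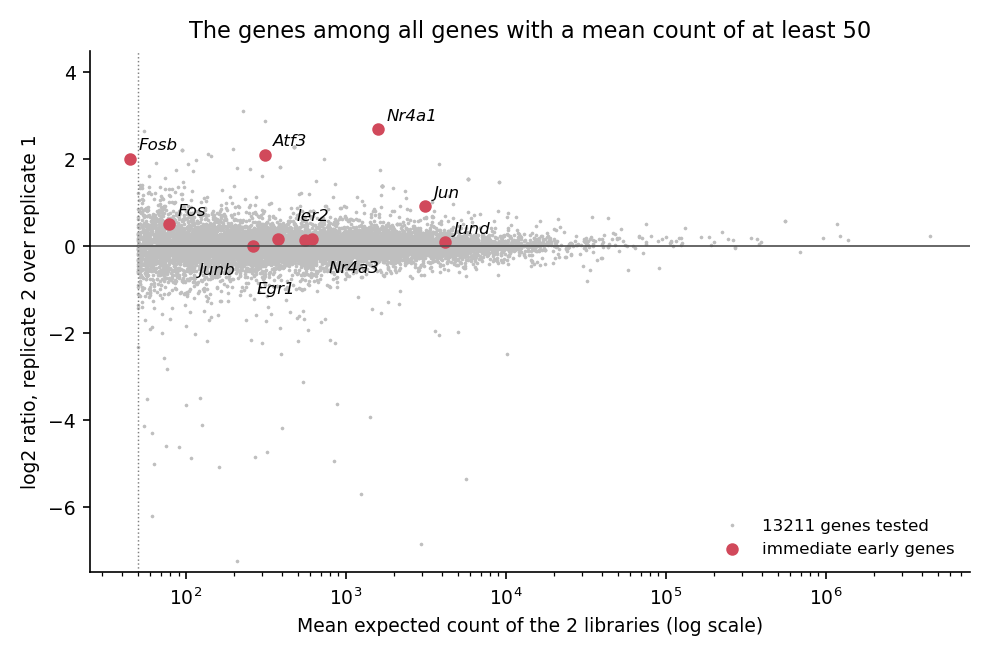
Log2 ratio, replicate 2 over replicate 1, against the mean expected count on a log axis for the 13211 genes tested (grey) and the 10 immediate early genes (red), with a dotted line at the minimum mean count of 50. Nr4a1, Atf3 and Jun lie above the cloud of genes of like count, Fosb lies left of the line with a mean count of 45, and Junb, Egr1, Ier2, Nr4a3 and Jund lie within it.

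The median log2 ratio of the 10 genes was 0.33, and 0.16 over the 9 tested, against 0.01 for all genes tested. Relatives from a list of 21 other immediate early transcription factors lay mostly on the same side of 1 on TMM-scaled counts. Of the 17 tested, all had a ratio above 1, 15 had an interval above 1 against 22.3% of all genes tested, and none was called past 2-fold in either direction. Under the other scalings and the other quantification, 10 to 14 of the 17 had an interval above 1, and none had an interval below 1. The lowest count, 10, came with scaling to the total count, where 11.7% of all genes had such an interval. The median of the list was 0.42. Fosl2, another FOS family member, had 1587 and 2747 counts and a log2 ratio of 0.93 (0.84 to 1.02). The 3 of highest level were Per1, a clock gene that also answers cyclic AMP (42.25 and 53.87 TPM, log2 ratio 0.65), Cebpb, a leucine zipper factor (41.84 and 39.23 TPM, 0.13), and Klf6, a zinc finger factor (34.07 and 44.79 TPM, 0.53). Egr4 was at 0 counts in both libraries. Fosl2 was chosen for mention as a family member of Fos, after its values were seen.

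Among 36 immediate early genes that encode effectors rather than transcription factors, 33 were tested and they lay on both sides. Of these, 16 had an interval above 1 and 8 below 1, against 22.3% and 20.6% of all genes tested. The median was 0.09. With the total count, 12 lay above and 14 below, against 11.7% and 38.5%, and the median was -0.01. On TMM-scaled counts, 3 were called higher against 0.802% of all genes tested. Called higher in replicate 2 were Gadd45b, a stress sensor (158 and 439 counts, log2 ratio 1.61, interval 1.35 to 1.89), Btg2, an antiproliferative gene (1097 and 2242 counts, 1.17, 1.07 to 1.28), and Sik1, a kinase that is itself a CREB target (2435 and 4450 counts, 1.01, 0.94 to 1.08). Sik1 missed the 2-fold threshold in the other quantification, at 0.93, and under each of the 4 other scalings, at 0.91 to 0.99, so its call holds with TMM scaling only. Called lower, against 0.984% of all genes tested, was Dusp4, a phosphatase of MAP kinases (211 and 77 counts, -1.31, -1.71 to -0.93). The 3 of highest level, Rhob, Mcl1 and Sgk1, had log2 ratios of 0.51, 0.27 and 0.33.

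Genes that act upstream of the immediate early genes made up a list of 25 regulators, all tested, and none was called past 2-fold in either direction. An interval above 1 was found for 6 and below 1 for 7, against 22.3% and 20.6% of all genes tested, and the median was -0.05. The number below 1 was 15 with the total count and 14 with the spike-ins, where 38.5% and 32.0% of all genes lay below. The 3 of highest level were Mef2a, Mef2d and Elk4, with log2 ratios of 0.25, 0.26 and 0.01. Srf, whose protein drives the serum response element, had 3614 and 2494 counts and a log2 ratio of -0.39 (-0.47 to -0.32). Creb1 had 1394 and 1468 counts and a log2 ratio of 0.22 (0.11 to 0.32). Both ratios lie between the 5th and 95th percentiles of all genes tested. Srf and Creb1 were chosen for mention by their role, and any link of their levels to the ratios of the 10 genes was not tested.

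Leucine zipper partners of FOS, JUN and ATF3 gave 12 tested of 15, with 6 intervals above 1 and 2 below 1, against 22.3% and 20.6% of all genes tested, and a median of 0.14. Cebpa, a factor of fat and liver cells, was called lower in replicate 2, against 0.984% of all genes tested (424 and 86 counts, log2 ratio -2.15, -2.51 to -1.82). The adipocyte markers given above were lower there too, and their part in the Cebpa value was not tested. Atf4, Atf7 and Nfe2l2, the 3 of highest level, had log2 ratios of 0.05, 0.20 and 0.28. Genes of the integrated stress response, the pathway through which ATF4 can induce Atf3, gave 10 tested of 12, with 3 intervals above 1 and 3 below 1, near the 22.3% and 20.6% of all genes tested, and a median of 0.04. Asns, the asparagine synthetase gene, was called lower, against 0.984% of all genes tested (244 and 74 counts, -1.57, -1.98 to -1.20). Ddit4, Atf4 and Atf5 had log2 ratios of 0.61, 0.05 and -0.42.

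Heat shock genes, tested in 11 of 11, had 1 interval above 1 and 6 below 1, against 22.3% and 20.6% of all genes tested. The median was -0.19 and none was called. Hspa8, Hspd1 and Hspb1, the 3 of highest level, had log2 ratios of -0.25, -0.07 and 0.02. Of 12 inflammatory early response genes only 3 had enough reads to be tested, and Il6, Ccl3 and Cxcl2 were at 0 counts in both libraries, where 3 counts would be 0.0772 CPM (counts scaled to library size) in replicate 1 and 0.0791 CPM in replicate 2. Icam1 had a log2 ratio of -0.47, Sele of -0.07 and Vcam1 of 0.15.

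**Figure D4:**
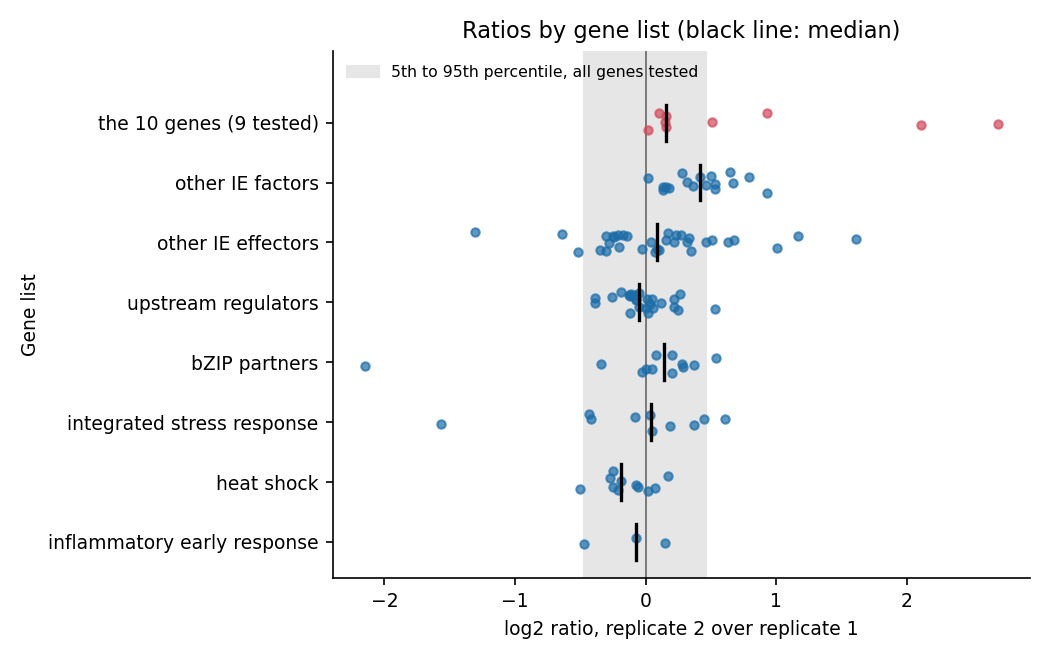
Log2 ratio, replicate 2 over replicate 1, of every tested gene of each list (1 point a gene; IE stands for immediate early), with a black line at the list's median and a grey band from the 5th to the 95th percentile of all genes tested. Nr4a1 and Atf3 stand furthest right, the other transcription factors lie at or above 0 with a median of 0.42, and the heat shock genes have a median of -0.19.

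The transcripts behind the Nr4a1 difference depended on the quantification. Nr4a1 lies on chromosome 15 at 101254269 to 101274795 (mm10, GENCODE M21, plus strand). Nr4a1-201, a transcript of 7 exons that starts at 101266846, received 313.2 counts in replicate 1 and 2527.6 in replicate 2 in the first quantification. Nr4a1-202, which starts upstream at 101254269 and encodes the same 601 residues, received 140.4 and 155.2. In the other quantification Nr4a1-201 received 0.0 and 488.3 counts and Nr4a1-202 received 441.0 and 2186.7. The tables thus placed the excess on different start sites, and the start was not resolved by them. The transcripts are nearly alike: of 2447 words of 31 bases in Nr4a1-201 only 27 are absent from the other transcripts of the gene, and of 2523 in Nr4a1-202 only 199. The retained-intron transcript Nr4a1-204, with 654 of 863 words found nowhere else in the gene, received 1.2 and 30.2 counts in the first and 1.0 and 26.0 in the other quantification. It falls below the 5% share set for naming and was chosen after its values were seen.

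Atf3 lies on chromosome 1 at 191170296 to 191218039 on the minus strand, and has a near and a far start site that give the same protein of 181 residues. Atf3-201, from the near start, received 86.3 and 354.4 counts in the first and 120.6 and 358.9 in the other quantification. Atf3-203, from the far start at 191218039, received 38.5 and 138.1 in the first and 0.0 and 134.7 in the other. Both quantifications placed more counts on Atf3-201 than on Atf3-203 in both hearts. The noncoding Atf3-202 received 1.2 and 3.6, and 8.4 and 14.4 in the other quantification.

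Fosb lies on chromosome 7 at 19302696 to 19310051 on the minus strand. Its full-length form Fosb-201, of 338 residues, received 11.2 and 0.0 counts in the first and 19.2 and 16.4 in the other quantification. Fosb-205, of 299 residues, received 6.7 and 52.4, and 0.0 and 39.8. Fosb-206, of 237 residues, received 1.2 and 14.3, and 0.8 and 13.4. Both tables placed the higher count of replicate 2 on the shorter-protein forms. Only 10 words of 31 bases are particular to Fosb-201 and none to the other 2, so these splits rest on few reads over shared sequence.

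**Figure D5:**
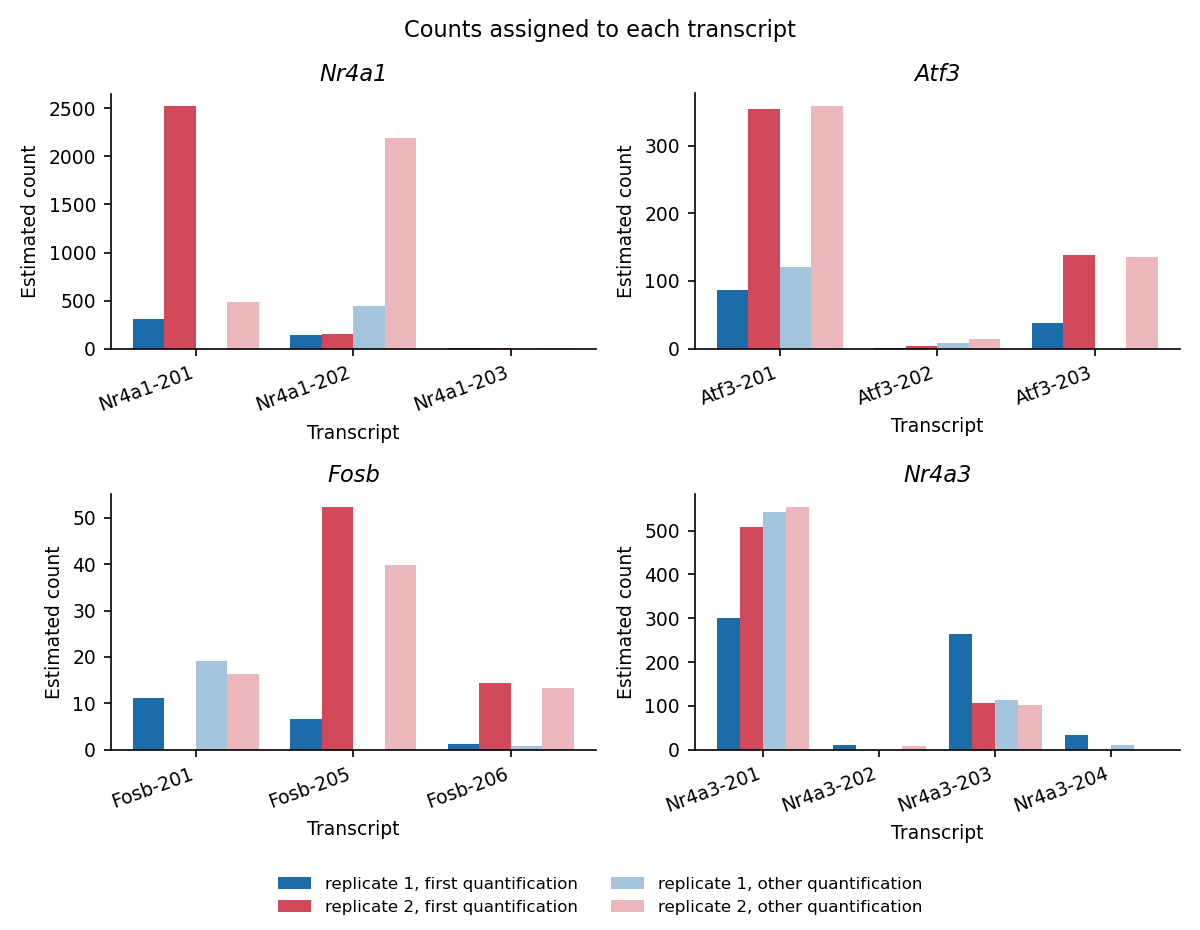
Estimated counts on each transcript that holds at least 5% of its gene's TPM, for Nr4a1, Atf3, Fosb and Nr4a3, with blue bars for replicate 1, red for replicate 2, dark shades for the first and pale shades for the other quantification. The tall bar of replicate 2 sits on Nr4a1-201 (2527.6 counts) in the first quantification and on Nr4a1-202 (2186.7 counts) in the other.

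Nr4a3 lies on chromosome 4 at 48045153 to 48086447 on the plus strand. In the first quantification Nr4a3-201 received 300.8 and 508.5 counts and Nr4a3-203, which starts downstream at 48049114, 263.9 and 107.5. The short noncoding Nr4a3-204, of 895 bases, received 32.5 and 0.0 counts, which made up 26.1% of the gene's TPM in replicate 1. In the other quantification Nr4a3-201 received 542.5 and 554.7, Nr4a3-203 113.4 and 101.2, and Nr4a3-204 11.1 and 0.0. The lower TPM of Nr4a3 in replicate 2 thus went with counts placed on longer transcripts.

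Fos lies on chromosome 12 at 85473890 to 85477273 on the plus strand. Its coding transcript Fos-201 held 73.7% of the gene's TPM in replicate 1 and 93.1% in replicate 2, and 53.7% and 83.7% in the other quantification. The noncoding Fos-203 held the remaining 26.3% and 6.90% in the first table. In the other table Fos-202 held 46.3% and 9.27%, and Fos-204 0% and 7.01%. These shares rest on under 10 counts for each noncoding form. Egr1 lies on chromosome 18 at 34859823 to 34864984 on the plus strand. Its 3-exon transcript Egr1-202 held 85.8% and 89.0%, and Egr1-201 14.2% and 11.0%, both of 533 residues.

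Jun, Junb, Jund and Ier2 are read from single-exon transcripts, which is 4 of the 10 genes, against 2.73% of 12134 protein-coding genes tested. Jun lies on chromosome 4 at 95049034 to 95052222 on the minus strand, Junb on chromosome 8 at 84974484 to 84978718 on the minus strand, Jund on chromosome 8 at 70698949 to 70700616 on the plus strand, and Ier2 on chromosome 8 at 84661331 to 84662852 on the minus strand. Ier2 and Junb are 311631 bases apart. The 10 genes had a median span of 4698 bases and a median of 3.50 exons in the main transcript, against 25686 bases and 9 exons for protein-coding genes tested. Nr4a1, Nr4a3 and Atf3, with spans of 20527, 41295 and 47744 bases, were the long ones.

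Genes on the opposite strand overlap 4 of the 10. The exons of Jun share 232 bases with the antisense gene Junos (11 and 12 counts), and those of Jund share 877 bases with the antisense gene Gm11175 (18 and 20 counts). The exons of Junb share 173 bases with Prdx2 (8088 and 7899 counts), none of them in the main transcript Junb-201. Gm24748 lies within Atf3 without touching an exon and was at 0 counts. Whether the counting used the strand of the reads is not given in the sources used here, so reads from these shared bases cannot be told apart. The counts of Junos and Gm11175 were small beside those of Jun and Jund. Sequence shared with other genes on the same strand was near nil, with 0 words of 31 bases for 8 genes, 2 for Fosb and 24 for Nr4a3.

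Transcripts of this class are known for short lives, and the AU-rich word ATTTA in the 3′ UTR is the classic mark of such transcripts. ATTTA was found in the 3′ UTR of 9 of the 10 genes, all but Ier2, against 66.5% of 11725 protein-coding genes tested. The median density was 2.20 per kb, against 1.24 for those genes, and 8 of the 10 lay above that value. Nr4a1 held 3 copies in 543 bases (5.52 per kb), Fos 4 in 815 (4.91), Junb 2 in 485 (4.12), Jun 4 in 1233 (3.24) and Atf3 3 in 1186 (2.53). Nr4a3 held 5 in 3093 bases (1.62), Egr1 2 in 1188 (1.68), Jund 1 in 533 (1.88) and Fosb 1 in 2139 (0.468). Any link between this density and the ratios between the hearts was not tested. The nonamer TTATTTATT, a strong form of the element, was found in Fos alone, against 7.14% of genes. It starts 655 bases after the stop codon of Fos-201 and is shown in capitals with its neighbours.
Fos: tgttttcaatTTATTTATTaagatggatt

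The genes with levels most like those of Nr4a1, Atf3 and Fosb were taken by the distance of log2(TPM + 1) over the 2 libraries, a likeness that rests on 2 points only. Nearest to Nr4a1 was Irs2, the insulin receptor substrate gene, at 9.20 and 29.41 TPM with 1731 and 5864 counts (distance 0.468). Next came 2 small RNA genes with few reads, Vaultrc5 (11 and 37 counts) and Gm25820 (5 and 21 counts). Nearest to Atf3 was Gm9803 at 2.08 and 6.79 TPM (29 and 101 counts, distance 0.309), followed by the small RNA genes Gm44346 (4 and 10 counts) and Gm24044 (3 and 12 counts). Nearest to Fosb were Gm13067, Gm2531 and Gm6345, each with 12 counts or fewer in each library. Irs2 was thus the only neighbour of the 9 that rests on many reads.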

How the data were processed

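Total RNA of 2 hearts was sequenced, 1 library each. Per the file headers, the deposited gene and transcript tables hold the authors' expected counts and TPM, and a separate transcript table holds estimated counts and TPM from the authors' other quantification. Per the labels and the deposited notes the build was mm10 with GENCODE M21; programs are not given in the sources used here. Rows naming no gene (26248, at most 1e-05% of counts) and 96 ERCC spike-ins (0.576% and 0.562% of counts) were left out of gene tests.

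Counts were rounded and scaled with TMM (edgeR 4.0.16 in R 4.3.3), with 0.5 added to each count of a ratio. Intervals (scipy 1.17.1) were checked on simulated data. DESeq2 1.42.0 size factors, totals, spike-ins, protein-coding counts, an added count of 5, minimum counts, a fold of 1.5 and the other quantification were alternatives. Estimated counts of the other quantification were summed per gene.

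The 10 genes and all lists were chosen with earlier results of these data known. Genes named were the 10, called genes and the 3 of highest mean TPM in each list, the 3 nearest genes to the 3 largest ratios, and transcripts with at least 5% of their gene's TPM. Promoters came from RefSeq, 3′ UTRs from GENCODE M21. Intervals cover counting error only, since reads are not independent molecules.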

Additional observations from a re-analysis of the deposited data

How the results depend on the processing

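Nr4a1 and Atf3 stayed over 2-fold higher in replicate 2 under every scaling, both quantifications and both added counts. Fosb joined them with a minimum mean count of 10 or none, where 1.89% of the 16728 genes with at least 10 counts were called, and Jun at a fold of 1.5, where 3.13% of genes were. The interval lay above 1 for 4 of all 10 genes, Fosb included, under 3 of the scalings and for 7 in the other quantification, against 6. The share of all genes tested was 11.7%, 14.5% and 16.7% under the 3 scalings. It was 19.9% in the other quantification and 22.3% with TMM. Those shares cover genes with a mean count of at least 50, which leaves out Fosb. The log2 ratio of Jund turned to -0.01 with the total count and to -0.13 on the ratio of deposited TPM, a setting chosen after seeing the data. On that ratio the median of the 10 genes was 0.02 rather than 0.33, Nr4a1 stood at 2.39, Nr4a3 at -0.57 and Ier2 at -0.08, with the median of all genes shifted by -0.22. Levels rescaled to protein-coding TPM were higher (Jund 213, Jun 82.0, Nr4a1 57.1 and Fos 3.53 TPM), because other RNA then left the total. Leaving out a library leaves its partner's level (Nr4a1 36.7 or 7.0 TPM) and no ratio. Intervals do not use the added count, so their number was not recomputed for it. No paired analysis was possible because the design holds 1 group. With 2 hearts, animal and preparation cannot be told apart, and low counts limit Fos and Fosb.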
